A study of Sus scrofa with 23 samples.

Results

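CFAP53, TCHP, CEP128 and KIF3C are 4 genes of cilia and centrosomes, and their RNA was followed in backfat of 23 crossbred pigs in 4 diet groups. They are 4 of 25322 gene identifiers in the count files: ENSSSCG00000027690 (CFAP53), ENSSSCG00000009926 (TCHP), ENSSSCG00000027438 (CEP128) and ENSSSCG00000008574 (KIF3C). They were chosen from these same pigs, because the study had listed each of them as changed in at least 1 contrast with group I. Every contrast of the 4 genes with group I is therefore a description, and nothing is read from calls in it. Group I (-cDDGS+rapeseed oil, 7 pigs) ate no corn distillers grains with solubles (cDDGS). The other groups ate cDDGS with rapeseed oil (group II, 6 pigs), beef tallow (group III, 5 pigs) or coconut oil (group IV, 5 pigs). Gilts and barrows were present in every group, with 12 females and 11 males in all. All pigs were fatteners of one crossing scheme and got diets of like energy and protein, and the starch, fiber and crude fat of the diet changed together with cDDGS, so these cannot be told apart.

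A primary cilium is a single antenna-like projection that many resting cells build on the older of their paired centrioles. Precursors of fat cells carry one, and it relays hedgehog and other signals, whereas mature adipocytes largely lack it. Motile cilia have additional dynein arms and inner microtubule proteins and occur on specialised epithelia and sperm. CFAP53 is a microtubule-associated protein of motile cilia, also known for its part in left-right asymmetry. TCHP (trichoplein) binds keratin filaments and sits on centrioles, where it holds back the growth of a primary cilium. CEP128 belongs to the subdistal appendages of the mother centriole, which anchor microtubules. KIF3C is a motor subunit of kinesin-2, the motor family that carries cargo along microtubules and, as a complex of KIF3A and KIF3B, drives intraflagellar transport.

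Levels are given as CPM, the reads of a gene per 1000000 reads in genes, after trimmed-mean (TMM) scaling over the 23 pigs. Between 2437172 and 7979426 reads per pig lay in genes, and all 56 pairs of pigs of one group differed by more than sampling noise. All 4 genes were weakly expressed, with 5 to 38 reads per pig for CFAP53, 21 to 87 for TCHP, 9 to 54 for CEP128 and 10 to 78 for KIF3C. The RNA was partly degraded according to the study. The sample labels begin with one letter for groups I and IV and with another for groups II and III, with no meaning given, so the contrast of groups IV and I lies within a letter and those of groups II and III with group I do not. The share of uniquely mapped reads outside annotated genes was 56.8% ± 2.53 (SD, n = 7) in group I, 62.5% ± 5.81 (n = 6) in group II, 56.8% ± 3.999 (n = 5) in group III and 63.0% ± 5.05 (n = 5) in group IV, so it was higher in groups II and IV than in groups I and III. In a bulk tissue sample, a change in the number of cells of a type and a change of RNA per cell cannot be told apart.

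CFAP53 had its lowest levels in group I, with a narrow range from 1.52 to 2.62 CPM and a median of 2.04. In group II it ran from 3.26 to 8.21 CPM with a median of 5.29. Its levels in group IV were 9.49, 3.87, 2.72, 6.96 and 5.76 CPM in pigs 49, 52, 53, 54 and 55. All pigs of groups II and IV therefore lay above all pigs of group I. Group III was different, since 4 of its pigs had 2.14 to 3.01 CPM and pig 41 alone had 7.24. The group means were 2.05 ± 0.366 CPM (SD, n = 7) in group I, 3.59 ± 2.07 (n = 5) in group III, 5.51 ± 1.97 (n = 6) in group II and 5.76 ± 2.65 (n = 5) in group IV. Over the 3 cDDGS groups, 15 of 16 pigs were above the highest pig of group I. The lowest count, 5 reads in pig 6 of group I, had an exact Poisson 95% interval of 1.62 to 11.7 reads, or 0.663 to 4.77 CPM, and the highest, 38 reads in pig 49, one of 26.9 to 52.2 reads, or 6.72 to 13.0 CPM. These intervals cover counting error only. Single pigs were thus imprecise for this gene, while the extreme values were separated by more than counting error.

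TCHP, the inhibitor of ciliary growth, ranged from 4.93 to 8.58 CPM in group I with a median of 6.36. In group II it ranged from 9.85 to 15.1 CPM with a median of 11.4. In group IV it stood at 14.0, 11.1, 9.44, 15.7 and 8.64 CPM in pigs 49, 52, 53, 54 and 55. Groups II and IV again did not overlap with group I, although pig 55 of group IV was close to pig 6, the highest of group I. In group III the values were 8.69, 13.4, 6.44, 10.1 and 9.03 CPM in pigs 41, 43, 45, 46 and 48, and pig 45 fell among the pigs of group I. The means were 6.51 ± 1.17 CPM (SD, n = 7) in group I, 9.54 ± 2.54 (n = 5) in group III, 11.8 ± 1.85 (n = 6) in group II and 11.8 ± 3.01 (n = 5) in group IV. Of the 16 pigs fed cDDGS, 15 exceeded every pig of group I. TCHP had the smallest spread of the 4 genes, with a standard deviation within diets of 0.29 on the scale of log2(CPM + 0.5). It was 0.32 for KIF3C, 0.49 for CFAP53 and 0.64 for CEP128. These deviations include counting error, which is larger for genes with fewer reads, so their order is not one of biological variation alone.

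**Figure D1:**
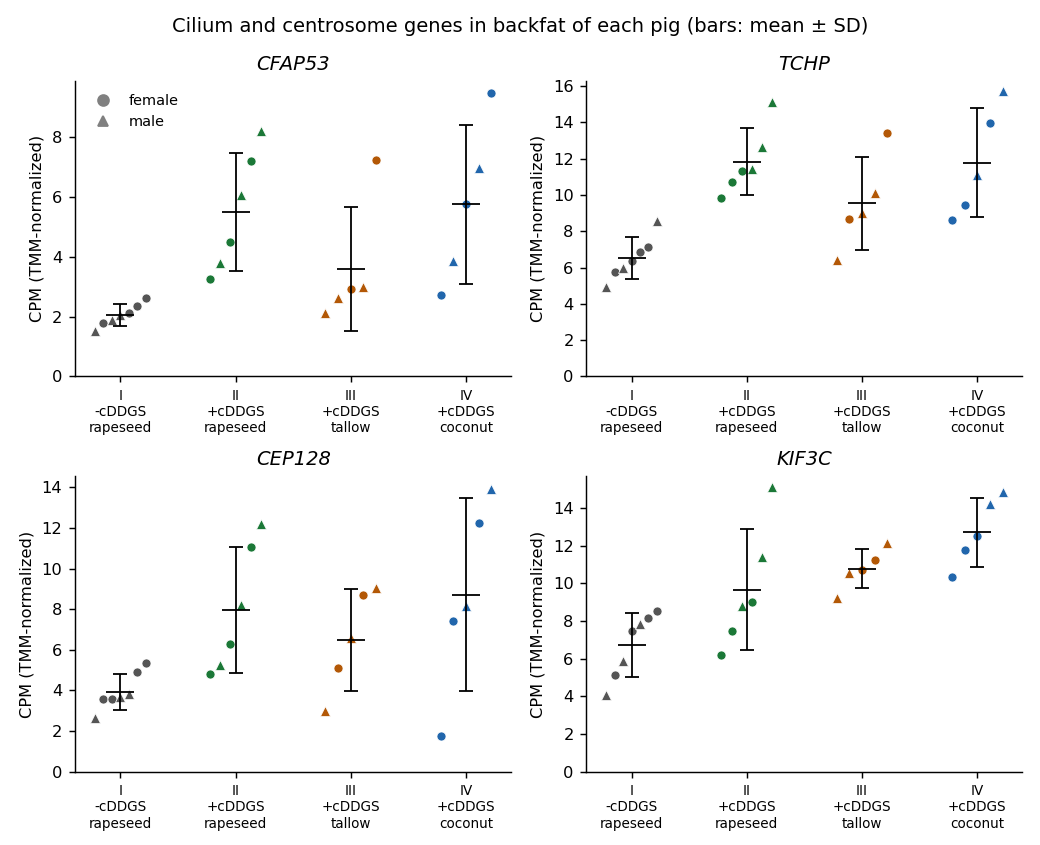
Levels of CFAP53, TCHP, CEP128 and KIF3C in each pig (CPM after TMM scaling, vertical axes from 0) by diet group, with circles for females, triangles for males and bars for the mean ± SD. Group I is the lowest group in all 4 panels, CFAP53 of pig 41 in group III stands apart at 7.24 CPM, and CEP128 in group IV ranges from 1.76 to 13.9 CPM.

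CEP128, the centriole appendage protein, had the widest scatter. It ranged from 2.65 to 5.35 CPM in group I with a median of 3.68, and from 4.78 to 12.2 CPM in group II with a median of 7.25. In group III it measured 8.69, 5.08, 3.01, 6.60 and 9.03 CPM in pigs 41, 43, 45, 46 and 48. In group IV the values of pigs 49, 52, 53, 54 and 55 were 12.2, 13.9, 1.76, 8.17 and 7.44 CPM. Pig 53 of group IV had the lowest level of all 23 pigs and pig 52 of the same group the highest. The means were 3.93 ± 0.904 CPM (SD, n = 7), 7.96 ± 3.09 (n = 6), 6.48 ± 2.52 (n = 5) and 8.71 ± 4.74 (n = 5) in groups I to IV, and 11 of 16 pigs fed cDDGS were above the highest pig of group I. Every cDDGS group overlapped with group I.

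The reference table gave the symbol CEP128 to a second identifier, ENSSSCG00000002410, and that identifier held most of the reads. It was measured at 12.0 ± 1.36 CPM (SD, n = 7) without cDDGS and, with it, at 14.7 ± 3.81 (n = 6) under rapeseed oil, 13.6 ± 4.78 (n = 5) under beef tallow and 14.97 ± 4.28 (n = 5) under coconut oil. Only 8 of 16 pigs fed cDDGS lay above its group I maximum of 14.3 CPM, and its log2 fold changes against group I were 0.31 (SE 0.17) in group II, 0.33 (SE 0.18) in group IV and 0.17 (SE 0.20) in group III. The study had not listed this identifier, which was therefore not used in the choice, but it shares the pigs and the tissue with the listed one. Its adjusted p in edgeR's quasi-likelihood test was 0.445 in group II, 0.430 in group IV and 0.875 in group III, so none passed an adjusted p of 0.05. That does not set it apart, since edgeR called 0.0291%, 0.0% and 0.0% of all genes in these contrasts. The listed identifier was not called in them either. The listed identifier took 25.05% of the reads of both identifiers in group I, and 34.9%, 31.9% and 35.6% in groups II, III and IV. In single pigs that share ran from 19.2% to 31.4% in group I and from 16.4% to 47.5% in the cDDGS groups, so the ranges overlapped. With both identifiers summed, the level was 15.9 ± 1.75 CPM in group I and 22.6 ± 6.85, 20.0 ± 6.402 and 23.7 ± 8.86 CPM in groups II, III and IV, and the log2 fold changes of CEP128 against group I were 0.53 in group II, 0.58 in group IV and 0.33 in group III. These lie between the values of the second identifier and those of the listed one, which are given further on. Across the 23 pigs the levels of both identifiers correlated with r = 0.77 on the log2 scale, a description over pigs that share libraries and diets.

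**Figure D2:**
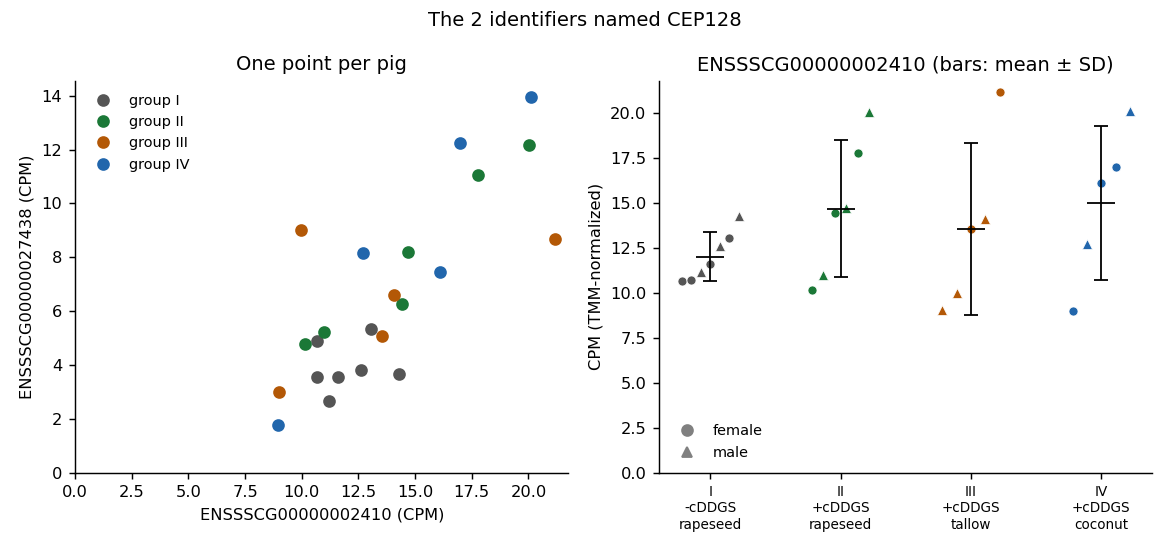
The left panel plots the CPM of the listed CEP128 identifier against the CPM of the second one, 1 point per pig coloured by diet group, and the right panel shows the second identifier by diet group with the mean ± SD (circles females, triangles males). The second identifier has its group I pigs between 10.7 and 14.3 CPM, inside the range of 8.96 to 21.2 CPM of the cDDGS groups.

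KIF3C, the kinesin-2 motor subunit, differed from the other 3 genes in its order of groups. It ranged from 4.08 to 8.51 CPM in group I with a median of 7.49, and from 6.19 to 15.1 CPM in group II with a median of 8.89. In group III the pigs 41, 43, 45, 46 and 48 had 10.7, 11.2, 9.23, 10.6 and 12.1 CPM. In group IV the pigs 49, 52, 53, 54 and 55 had 11.7, 14.2, 12.5, 14.8 and 10.3 CPM. Groups III and IV did not overlap with group I, and group III had the smallest standard deviation of the 4 groups, whereas in group II 2 of 6 pigs fell inside the range of group I. The means were, from low to high, 6.72 ± 1.70 CPM (SD, n = 7) in group I, 9.66 ± 3.20 (n = 6) in group II, 10.8 ± 1.05 (n = 5) in group III and 12.7 ± 1.83 (n = 5) in group IV. Its partner KIF3A, with which it forms a heterodimer, was 28.7 ± 4.34 CPM in group I and 35.4 ± 8.27, 32.6 ± 4.48 and 36.2 ± 8.71 CPM in groups II, III and IV, a combined log2 fold change of 0.29 (SE 0.12; adjusted p = 0.257 in edgeR). KIFAP3, the accessory subunit that joins KIF3A and KIF3B to cargo, had a combined log2 fold change of -0.13 (SE 0.09; adjusted p = 0.522). KIF3B was listed at 0 reads in all 23 pigs, and KIF17, the motor of the homodimeric kinesin-2, had 0 to 3 reads per pig. Of the kinesin-2 motors in the files, KIF3C and KIF3A were thus the ones with more than a few reads. Whether KIF3B RNA was absent or was not counted cannot be told from its 0.

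The log2 fold changes against group I were positive for all 4 genes in all cDDGS groups. In group II they were 1.41 (SE 0.26) for CFAP53, 1.03 (SE 0.26) for CEP128, 0.89 (SE 0.16) for TCHP and 0.50 (SE 0.23) for KIF3C. In group IV they were 1.46 (SE 0.30) for CFAP53, 1.13 (SE 0.36) for CEP128, 0.90 (SE 0.19) for KIF3C and 0.87 (SE 0.19) for TCHP. In group III they were 0.75 (SE 0.31) for CFAP53, 0.70 (SE 0.27) for CEP128, 0.66 (SE 0.19) for KIF3C and 0.57 (SE 0.20) for TCHP. For CFAP53, TCHP and CEP128 the value in group III was below those in groups II and IV, and for KIF3C the lowest was in group II. For CFAP53, the value in group III dropped to 0.37 without pig 41. With the 3 cDDGS groups combined, the log2 fold changes were 1.25 (SE 0.29) for CFAP53, 0.96 (SE 0.29) for CEP128, 0.78 (SE 0.15) for TCHP and 0.69 (SE 0.16) for KIF3C, which are 2.37-fold, 1.95-fold, 1.72-fold and 1.61-fold. All of these contrasts share the 7 pigs of group I, so they are not independent of each other.

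Groups that did not overlap, with all cDDGS pigs higher, were found for CFAP53 and TCHP in group II, where 0.203% of all genes tested showed this, for CFAP53, TCHP and KIF3C in group IV, where 0.424% did, and for KIF3C in group III, where 0.211% did. No gene of the 10749 tested (0.0%) had all 16 combined pigs above group I. A call required an adjusted p under 0.05 and a fold change above 1.3. By that rule edgeR called 0.0291% of genes in group II and 0.0% in the other contrasts, and none of the 4 genes was called. DESeq2, the tool of the study, called 2 of 3 tested in group II, where CFAP53 got no adjusted p, and 3, 4 and 0 of 4 in group IV, the combined groups and group III. It called 1.15%, 1.31%, 1.67% and 0.109% of all genes in these contrasts. By limma-voom, 1, 0, 2 and 0 of the 4 were called, beside 0.0387%, 0.0%, 0.474% and 0.0% of all genes. Nothing is read from these counts, because the choice of the genes rested on the same contrasts.

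**Figure D3:**
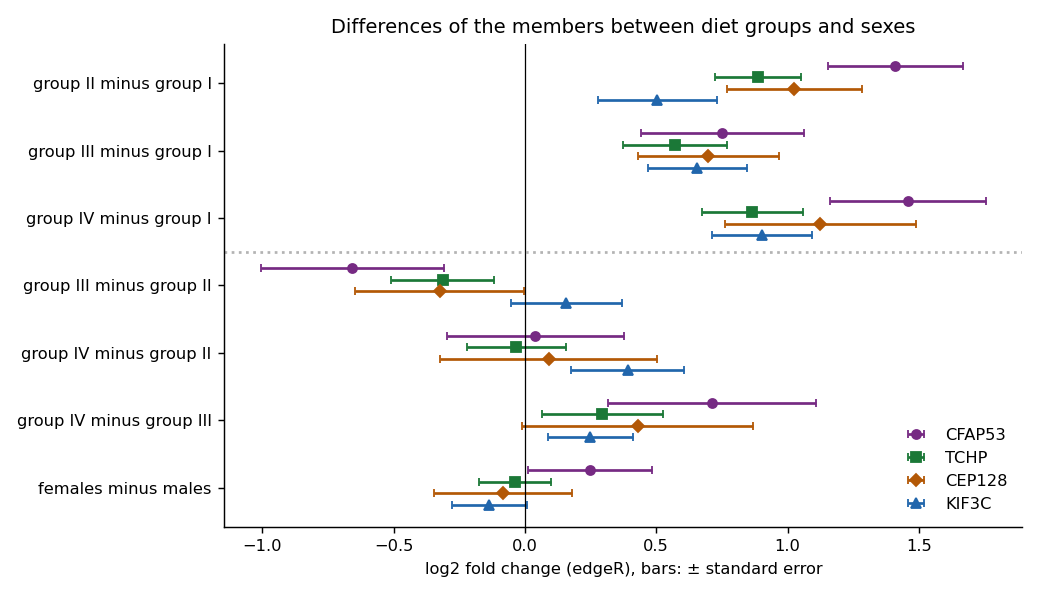
Log2 fold change (horizontal axis) of each gene between diet groups and between the sexes, as edgeR estimates with bars of ± 1 standard error. Above the dotted line, the contrasts with group I from which the genes were chosen lie between 0.50 and 1.46, and below it the contrasts among the cDDGS groups and between the sexes lie between -0.66 and 0.71.

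The fat source was compared among the 3 groups that all ate cDDGS. No gene of the 4 passed the threshold in any of these comparisons, in which edgeR called 0.0% of all genes in each. None of the 4 had an unadjusted p under 0.05 in edgeR or DESeq2, where edgeR gave one to 6.22% of genes between groups III and II, 4.99% between groups IV and II and 4.12% between groups IV and III. With limma-voom, CFAP53 had one in both comparisons of group III: its log2 difference was -0.82 from group II (adjusted p = 0.435) and 0.95 between groups IV and III (adjusted p = 0.694), where 8.93% and 7.07% of genes had one. DESeq2 called 0.251%, 0.0116% and 0.0% of all genes in the 3 comparisons and limma-voom 0.0% in each, and neither called any of the 4. The largest difference was that of CFAP53, which was 0.66 lower in group III than in group II on the log2 scale (log2 fold change -0.66, SE 0.35, 95% interval -1.41 to 0.09, adjusted p = 0.843 in edgeR) and 0.71 higher in group IV than in group III (SE 0.40, interval -0.14 to 1.57, adjusted p = 0.997). Without pig 41 those differences became -1.04 and 1.08, and the other 4 pigs of group III (2.14 to 3.01 CPM) lay below all pigs of group II (3.26 to 8.21 CPM). Without pig 49 the second difference became 0.45. TCHP differed by -0.31 (SE 0.20) between groups III and II and by 0.30 (SE 0.23) between groups IV and III. Leaving out 1 pig moved these from -0.48 (without pig 43) to -0.21 (without pig 45) and from 0.17 (without pig 54) to 0.46 (without pig 43). CEP128 differed by -0.32 (SE 0.32) and 0.43 (SE 0.44) in the same comparisons, which ran from -0.47 (without pig 48) to -0.15 (without pig 45) and from 0.18 (without pig 52) to 0.72 (without pig 53). Between the groups fed cDDGS with coconut and with rapeseed oil, CFAP53, TCHP and CEP128 differed by 0.04 (interval -0.68 to 0.76), -0.03 (interval -0.44 to 0.37) and 0.09 (interval -0.79 to 0.97). Those intervals are wide, and for CFAP53 and CEP128 they include differences of more than 0.5 in either direction.

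For KIF3C the order of the fats was coconut oil, beef tallow, rapeseed oil. Its level was 0.16 (SE 0.21, interval -0.30 to 0.61) higher in group III than in group II (0.07 without pig 21 and 0.30 without pig 24), 0.39 (SE 0.21, interval -0.07 to 0.85, adjusted p = 0.979 in edgeR) higher in group IV than in group II and 0.25 (SE 0.16, interval -0.10 to 0.60) higher in group IV than in group III. A 2-sided exact permutation test on log2(CPM + 0.5) gave p = 0.0779 for groups IV and II, where 462 regroupings allow no p below 0.00216, and p = 0.0873 for groups IV and III, where 252 regroupings allow none below 0.00794. For CFAP53 the same exact permutation test gave p = 0.0996 between groups III and II and p = 0.151 between groups IV and III. Thus no neighbours in the order of cDDGS groups passed the exact test or the adjusted threshold of any tool, while for CFAP53 group III lay below the others by an unadjusted p under 0.05 in limma-voom. Groups II and IV had a larger part in the choice of the genes than group III, so these comparisons are not fully independent of it.

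Sex was compared within diets over all 23 pigs. No difference of the 4 genes between females and males was detectable, and none was called by edgeR, DESeq2 or limma-voom, whereas edgeR called 0.954% of all genes and 17.7% had an unadjusted p under 0.05. The log2 difference of females and males was 0.25 (SE 0.23, 95% interval -0.24 to 0.73, adjusted p = 0.602) for CFAP53, -0.04 (SE 0.14, interval -0.32 to 0.24, adjusted p = 0.903) for TCHP, -0.08 (SE 0.26, interval -0.62 to 0.46, adjusted p = 0.895) for CEP128 and -0.14 (SE 0.14, interval -0.43 to 0.16, adjusted p = 0.644) for KIF3C. That of CFAP53 was 0.07 without pig 41 and 0.34 without pig 17, and that of KIF3C -0.07 without pig 24. In group I, 4 females had a mean CFAP53 level of 2.22 ± 0.355 CPM and 3 males one of 1.82 ± 0.273. In the combined cDDGS groups, 8 females had 5.39 ± 2.46 CPM and 8 males 4.59 ± 2.22. KIF3C was 7.31 ± 1.52 CPM in females and 5.94 ± 1.89 in males of group I, against 9.89 ± 2.18 and 12.0 ± 2.48 in the cDDGS groups, so the order of the sexes was opposite. The term for a different cDDGS effect in the sexes was -0.52 for KIF3C (SE 0.32, interval -1.18 to 0.14) and -0.59 for CEP128 (SE 0.59, interval -1.81 to 0.64), with an adjusted p of 1.00 for both in edgeR. That test called 0.0% of 11466 genes, with 3.63% at an unadjusted p under 0.05 and 3 calls by DESeq2.

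Within diets, the 4 genes were weakly and positively correlated. After subtraction of diet means from log2(CPM + 0.5) the 6 pairs had Pearson correlations from 0.20 (CFAP53 and KIF3C) to 0.42 (CFAP53 and CEP128) over 23 pigs. Single pigs moved these values, since CFAP53 and CEP128 fell to 0.16 without pig 53, CFAP53 and KIF3C to 0.05 without pig 24, and TCHP and KIF3C ran from 0.09 without pig 24 to 0.48 without pig 6. The pair with the smallest p was CEP128 and KIF3C, with r = 0.36 (permutation p = 0.0484, adjusted over the 6 pairs 0.269) and Spearman's rho = 0.48 (permutation p = 0.0169, adjusted 0.102). Without the 2 pigs farthest from the median of CEP128, r was 0.49. For CFAP53 and TCHP, r was 0.34 (permutation p = 0.183, adjusted 0.269) and rho 0.34 (permutation p = 0.159, adjusted 0.353), with r = 0.19 without the 2 farthest pigs. For CFAP53 and CEP128, r was 0.42 (permutation p = 0.133, adjusted 0.269) and rho 0.28 (permutation p = 0.267, adjusted 0.353). No pair passed after adjustment.

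The named genes among the 5 whose levels across the 23 pigs resembled each of the 4 most are given here with Pearson's r on log2(CPM + 0.5). For CFAP53 they were RBM5 (r = 0.79), a splicing regulator, P2RX7 (r = 0.78), an ATP-gated channel of immune cells, PHF11 (r = 0.78) and MYO1E (r = 0.78), a class I myosin. For TCHP they were ZEB1 (r = 0.88), a repressor of epithelial genes, SUPT5H (r = 0.82), a transcription elongation factor, and SMAD2 (r = 0.81), a mediator of TGF-beta signalling. For CEP128 they were BOD1L1 (r = 0.87), METTL14 (r = 0.85), a subunit of the RNA N6-adenosine methyltransferase, PNN (r = 0.84), TSPYL2 (r = 0.84) and ATP6V0A1 (r = 0.83), a proton pump subunit. For KIF3C they were ANKRD11 (r = 0.81), a chromatin regulator, LTO1 (r = 0.80), ZC3H4 (r = 0.79) and THYN1 (r = 0.78). The 99th percentile of r over all genes was 0.63 for CFAP53, 0.67 for TCHP, 0.71 for CEP128 and 0.66 for KIF3C. These values include the diet differences by which the genes were chosen.

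After the diet means were subtracted, ZEB1 (r = 0.74) and SMAD2 (r = 0.73) were still among the 5 nearest to TCHP, and METTL14 (r = 0.85), BOD1L1 (r = 0.83) and ATP6V0A1 (r = 0.80) among those of CEP128, which were then led by the RNA helicase DDX46 (r = 0.85). For CFAP53 the nearest became CCDC85A (r = 0.80), ZNF366 (r = 0.79), MFSD6 (r = 0.76) and BTNL9 (r = 0.75), none of which was on the first list. The nearest named gene to KIF3C became R3HDM4 (r = 0.73). All of these correlations are descriptions over pigs that share diets, depth and RNA quality.

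The share of reads outside annotated genes, which was higher in groups II and IV, also moved with 3 of the 4 genes within diets. With diet means subtracted, its correlation over 23 pigs was 0.46 for CFAP53, 0.37 for TCHP, 0.28 for CEP128 and -0.07 for KIF3C, while the median over 11039 genes was -0.01. For CFAP53, 95.2% of genes had a lower value, for TCHP 90.3%, for CEP128 83.1% and for KIF3C 43.6%. KIF3C, at -0.07, thus lay near the median of all genes. With that share as a covariate, the log2 fold change between groups IV and I became 0.46 for TCHP in place of 0.87 and 0.67 for CEP128 in place of 1.13. The difference of CFAP53 between groups IV and III became 0.13 in place of 0.71, and that of TCHP became -0.04 in place of 0.30. Its part in the diet differences was not tested, since it differs between the groups and cannot be told apart from diet.

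**Figure D4:**
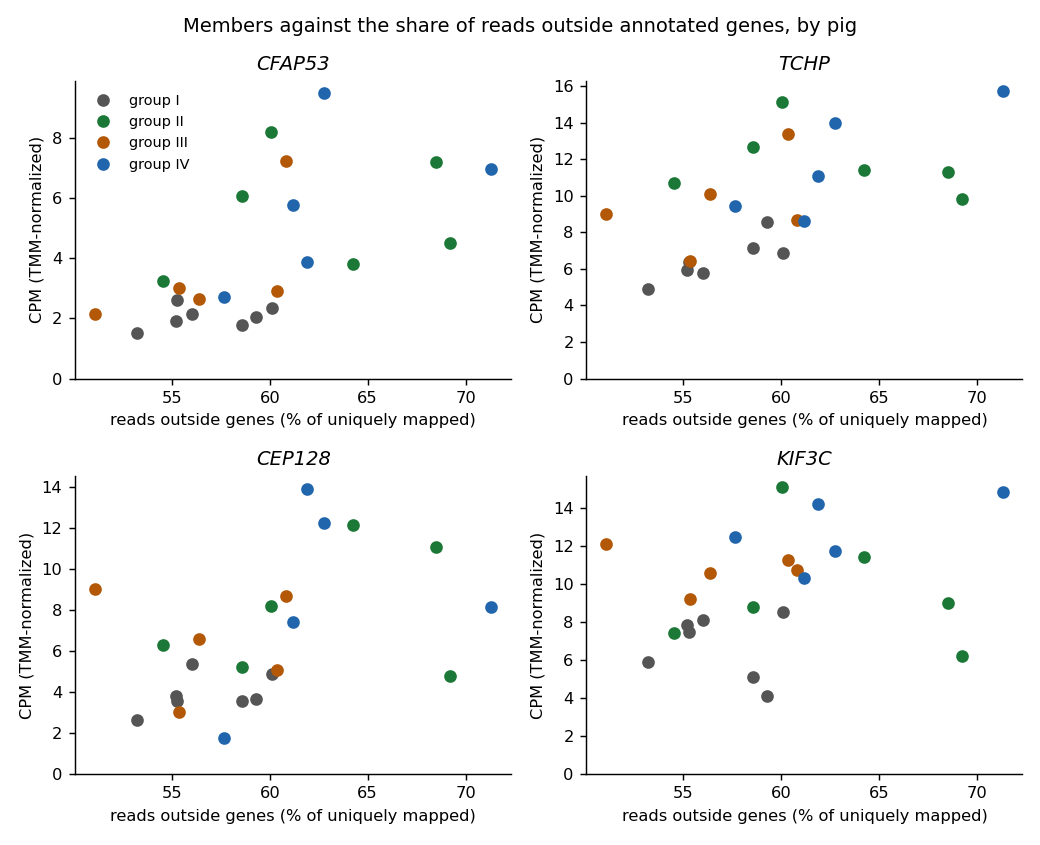
Level of each gene (CPM, vertical axis from 0) against the share of uniquely mapped reads outside annotated genes (percent, horizontal axis), 1 point per pig coloured by diet group. CFAP53, TCHP and CEP128 have within-diet correlations with the share of 0.46, 0.37 and 0.28, and KIF3C has a within-diet correlation of -0.07.

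Other genes of cilia, centrosomes and the hedgehog pathway were described from 7 lists by role, with 215 symbols, of which 171 matched 172 identifiers. In the combined contrast of groups II, III and IV with group I, 122 were tested and edgeR called 0 of them, as it called 0.0% of all genes. At an unadjusted p under 0.05, 22 were higher and 3 were lower, which are 18.0% and 2.46% of the lists against 8.69% and 7.08% of all genes tested. DESeq2 called 2 of 111 list genes (CDK5RAP2 and CSPP1, both higher) beside 1.67% of all genes, and limma-voom 0 of 122 beside 0.474%, so neither count stands apart from the share over all genes. The median log2 fold change of the lists was 0.08, beside 0.01 over all genes. In group II alone, 22 of 117 list genes were higher (18.8%) and 2 lower (1.71%) at an unadjusted p under 0.05 (median 0.15). In group IV, 20 of 117 were higher (17.1%) and 3 lower (2.56%) by that measure (median 0.07). In group III, 6 of 118 were higher (5.08%) and 3 lower (2.54%, median 0.04). Over all genes, 6.55% were higher and 6.41% lower by that measure with rapeseed oil, 8.22% and 5.98% with coconut oil, and 4.07% and 3.90% with beef tallow.

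By role, only 8 of the 29 matched genes of the motile axoneme passed the expression filter and were tested. Of these 8, 3 had an unadjusted p under 0.05, all higher in the combined cDDGS groups. GAS8, a subunit of the dynein regulatory complex, was 12.1 ± 3.11 CPM in group I and 16.7 ± 2.77 in the cDDGS groups, a log2 fold change of 0.48 (SE 0.14, adjusted p = 0.129 in edgeR). LRRC6, needed for dynein arm assembly, had a log2 fold change of 0.59 (SE 0.28, adjusted p = 0.305) and CFAP70, a protein of cilia and flagella, one of 0.54 (SE 0.26, adjusted p = 0.311). TTC25, a docking factor of outer dynein arms and the list gene with the most reads, was not among the 3, with a log2 fold change of 0.15 (SE 0.29) and an unadjusted p of 0.607. Among 21 tested genes of kinesin-2 and intraflagellar transport, 6 were higher and 1 (IFT20) lower by that measure. IFT172, a large subunit of the transport train, was 25.4 ± 2.57 CPM in group I and 30.9 ± 4.25 in the cDDGS groups (log2 fold change 0.29, SE 0.10, adjusted p = 0.155), while IFT46 stood at 89.8 ± 15.3 and 89.6 ± 15.97 CPM. TRAF3IP1 (IFT54) had a log2 fold change of 0.67 (SE 0.23) on one identifier and 0.18 (SE 0.11) on another that held more reads, so, as for CEP128, identifiers of the same symbol gave unlike values.

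Of 26 tested genes of the transition zone and the BBSome, the gate and the cargo adaptor of the cilium, 3 were higher and 0 lower at an unadjusted p under 0.05, and their median was -0.04. DZIP1L was 28.7 ± 6.85 CPM in group I and 44.5 ± 16.1 in the cDDGS groups (log2 fold change 0.64, SE 0.20, adjusted p = 0.136 in edgeR), TCTN2 had 0.61 (SE 0.22, adjusted p = 0.186), and CEP290, a core transition zone protein, 0.11 (SE 0.14). Of 23 tested genes of centriole appendages and ciliogenesis, 2 were higher and 1 was lower. EHD1, a membrane-shaping protein of early ciliogenesis, was 30.3 ± 8.11 CPM in group I and 21.8 ± 4.94 in the cDDGS groups (log2 fold change -0.47, SE 0.15, adjusted p = 0.138), and RAB8A, a GTPase of ciliary membrane traffic, 50.8 ± 6.08 and 58.8 ± 6.22 CPM (log2 fold change 0.22, SE 0.08, adjusted p = 0.205). For other subdistal appendage proteins the log2 fold changes were 0.12 (SE 0.08) for NIN, 0.07 (SE 0.10) for ODF2 and 0.02 (SE 0.13) for CEP170, none with an unadjusted p under 0.05.

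Of 34 tested genes of the centriole core and the pericentriolar material, 6 were higher and 1 was lower by the same measure. AKAP9, a scaffold of the centrosome and the Golgi and the most abundant of the list, was 644 ± 85.3 CPM in group I and 704 ± 101 in the cDDGS groups (log2 fold change 0.14, SE 0.10, adjusted p = 0.519 in edgeR). CSPP1, a microtubule-stabilising protein of spindle and cilium, was 53.7 ± 10.9 CPM in group I and 72.9 ± 12.8 in the cDDGS groups (log2 fold change 0.45, SE 0.12, adjusted p = 0.106 in edgeR), and CDK5RAP2, which recruits gamma-tubulin, 14.1 ± 3.76 and 22.0 ± 5.72 CPM (log2 fold change 0.64, SE 0.18, adjusted p = 0.115). The lower gene was NEK4, a kinase of the NIMA family, with 139 ± 55.6 CPM in group I and 78.5 ± 14.0, 110 ± 28.6 and 102 ± 24.4 CPM in groups II, III and IV, and a log2 fold change of -0.53 (SE 0.18, adjusted p = 0.161). CDK5RAP2, CSPP1, TCTN2, TRAF3IP1, DZIP1L and NEK4 are themselves on the gene lists that the study drew from these pigs, so they are not independent of the choice. In the hedgehog pathway, 1 of 8 tested genes had an unadjusted p under 0.05, the transcription factor GLI3, with a log2 fold change of 0.37 (SE 0.18, adjusted p = 0.314). PTCH1, the hedgehog receptor, was 34.4 ± 4.24 CPM in group I and 36.8 ± 12.6 in the cDDGS groups, KIF7, the kinesin that organises the ciliary tip, had a log2 fold change of 0.25 (SE 0.16), and GLI1, a target of the pathway, had 0 to 2 reads per pig. Of the partners of TCHP, PNN (pinin), which binds keratins and splicing factors, was 215 ± 37.9 CPM in group I and 288 ± 63.2 in the cDDGS groups (log2 fold change 0.43, SE 0.13, adjusted p = 0.136), and USP8, which deubiquitinates TCHP, had 0.23 (SE 0.12). KRT8 and KRT18, keratins that TCHP binds, had at most 23 and 11 reads in a pig.

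**Figure D5:**
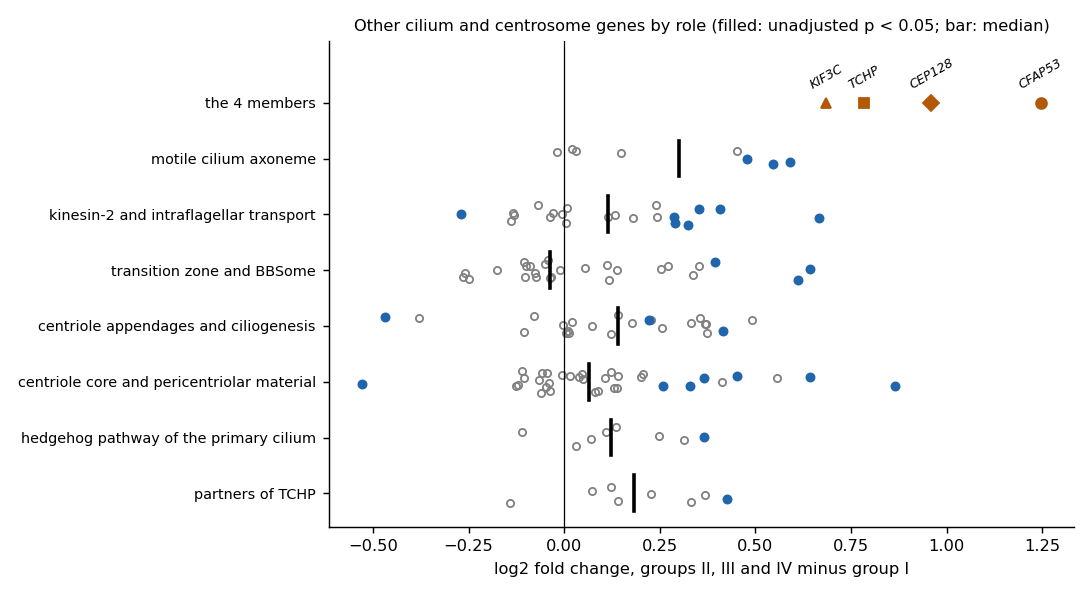
Log2 fold change of the combined cDDGS groups against group I (horizontal axis) for each tested gene of the 7 role lists, with filled points for an unadjusted p under 0.05, black bars for list medians and the 4 chosen genes in the top row. The list medians run from -0.04 to 0.30, and the top row is no measure for them, since its genes were chosen for their change in these pigs.

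Between the sexes, edgeR called 2 of 118 list genes, both higher in females, where it called 0.954% of all genes. IFT122, a subunit of the retrograde transport complex, was 15.9 ± 2.64 CPM in 12 females and 11.9 ± 3.09 in 11 males (log2 fold change 0.47, SE 0.12, adjusted p = 0.0494 in edgeR). FBF1, a distal appendage protein, was 13.4 ± 3.09 CPM in females and 9.10 ± 2.54 in males (log2 fold change 0.58, SE 0.14, adjusted p = 0.0494). The ranges of the sexes overlapped for both. These calls were marginal: with 1 of the 23 pigs left out in turn, each gene kept a call in 4 of 23 fits, and the adjusted p ran up to 0.120 for IFT122 and 0.116 for FBF1. DESeq2 called both and also SSX2IP as lower in females, 3 of 129 list genes beside 2.12% of all genes, whereas limma-voom called IFT122 and SSX2IP, 2 of 118 beside 0.74%.

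Marker genes of the cells that backfat can hold were summed in each pig. Markers of multiciliated epithelium (FOXJ1, TEKT1 and TEKT2) had 0 to 2, 0 to 1 and 0 to 1 reads, so these were at or near 0. Only these 3 of 7 listed markers matched an identifier, and DNAH5, DNAI1, RSPH1 and PIFO could not be looked up. The adipocyte markers that matched an identifier were PLIN1, LIPE and CIDEC, 3 of 6 listed. They were abundant in every pig, so the labelled tissue had these defining markers. Their summed level ranged from 1911 to 2609 CPM in group I and from 1421 to 2304 CPM in the cDDGS groups. In the combined contrast, 0 of 3 had a positive log2 fold change, and 2 were lower at an unadjusted p under 0.05. Precursor and fibroblast markers ranged from 7076 to 12624 CPM and from 4245 to 12305 CPM, with 1 of 6 positive and 2 lower by that measure. Macrophage markers were 34.3 to 167 CPM in group I and 77.2 to 348 CPM in the cDDGS groups, with 5 of 5 tested markers positive and at an unadjusted p under 0.05. Mast cell markers were 83.2 to 176 and 55.1 to 223 CPM, with 3 of 3 positive and 2 of them at an unadjusted p under 0.05. Endothelial markers were 500.3 to 1030.4 and 631 to 1099 CPM, with 4 of 5 positive and 2 higher by that measure. Over all genes tested, 8.69% were higher and 7.08% lower by it. The study had named VSIG4, MRC1, C1Q, MS4A2, FCER1G and PCDH12 as changed in these pigs. The counts of macrophage, mast cell and endothelial markers are therefore not independent of that choice. Skeletal muscle markers varied widely between pigs, with 4 to 10677 reads of ACTA1 and sums of 1.11 to 987 CPM in group I and 1.74 to 1620 CPM in the cDDGS groups. MYH11, CDH1 and PLK1, markers of smooth muscle, epithelium and dividing cells, were listed at 0 in every pig. For smooth muscle, however, ACTA2 had 75 to 442 reads and TAGLN 42 to 260. Among markers of dividing cells, TOP2A had 27 to 285 reads and HMMR 25 to 252, and CCNB1, CDK1 and BUB1 at most 24, 19 and 7. The epithelial marker EPCAM had 0 to 4. A 0 on a single marker therefore does not show that a cell type was absent. Within diets, the macrophage sum correlated with CFAP53, TCHP, CEP128 and KIF3C at -0.23, -0.15, -0.17 and -0.03, and the endothelial sum at 0.52, -0.08, 0.28 and 0.49. The mast cell sum did so at -0.07, 0.50, 0.02 and 0.09, and the skeletal muscle sum at -0.33, 0.06, 0.06 and 0.50. For the adipocyte sum the values were -0.26, 0.02, -0.35 and -0.32. The highest positive correlation was with the endothelium for CFAP53, with mast cells for TCHP and with skeletal muscle for KIF3C. For CEP128 it was with lymphocytes (0.29, beside 0.28 for the endothelium), and its negative correlation with the adipocyte sum was larger in size. These are the highest values among all marker lists, and none of these correlations was tested. The part of these cell types in the diet differences was not tested.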

How the data were processed

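Total RNA of backfat was sequenced single-end after ribosomal RNA depletion and stranded library preparation. The authors mapped the reads with TopHat and deposited, per sample, the whole-number read counts per Ensembl gene from HTSeq, without normalization. The strand setting is not given in the sources used here. The study names pig assembly 11.1 with annotation version 87, a pairing that the count files do not settle, so no coordinates are given. Each table held 25322 identifiers and 5 summary rows, which were kept out of library sizes and tests. Symbols came from the reference table for 11804 identifiers (KIF3C among them) and, with the names of the study added, for 11882 (CFAP53, TCHP and the listed CEP128). The reference symbols place CFAP53 on another identifier, absent from the counts, so its name here rests on the study. No sequence of these genes was used here. The 4 genes, the role lists and the marker lists were chosen with earlier results of these data known.

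From the deposited counts, CPM after TMM scaling and quasi-likelihood tests were computed in edgeR 4.0.16 (R 4.3.3) on genes kept by its expression filter, separately for the pigs of each comparison, with Benjamini-Hochberg adjustment over all genes tested. A call needed an adjusted p under 0.05 and a fold change above 1.3. Standard errors were the log2 fold change divided by the root of its F value, and intervals used the t distribution with the moderated degrees of freedom. Sex was tested with diet as a term, and the term for unlike cDDGS effects with sex and cDDGS. Correlations used log2(CPM + 0.5) with diet means subtracted and 100000 permutations within diets. The fitting code was tested on simulated data. Named list genes were, per list, the one with the highest mean CPM, the 2 with the smallest p in the combined contrast, and any called by edgeR. Nearest genes were the 5 with the highest r. KIF3A, KIFAP3, KIF3B, KIF17, ODF2, CEP170, GLI1, KRT8 and KRT18 were added as known partners or targets, and CFAP70, IFT20, NEK4, SSX2IP and the second CEP128 identifier were named after their values were seen. Alternatives were DESeq2 1.42.0, limma-voom with quality weights (limma 3.58.1), median-ratio normalization, fits without the expression filter or with a minimum of 10 reads per pig, sex, RNA integrity number or the share of reads outside genes as covariate, all 23 pigs in one fit, a pseudocount of 2, both CEP128 identifiers summed, and leaving out each pig. The covariate for reads outside genes and the sum of the identifiers were chosen after seeing the data. Replicates were separate pigs.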

Additional observations from a re-analysis of the deposited data

Results flagged for a closer look

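In group III, CFAP53 was 7.24 CPM in pig 41 and 3.01 CPM in the next pig, a gap to the nearest sample that was large for the range of the group by Dixon's 95% limit. It was the only one among 20 sets of 4 to 10 pigs (5 identifiers in 4 diet groups), where chance alone flags about 1 in 20. Pig 41 also had the highest level of the second CEP128 identifier in group III, 21.2 CPM.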

How the results depend on the processing

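The log2 fold changes of CFAP53, TCHP, CEP128 and KIF3C against group I kept their positive sign under all alternatives that gave a value, and leaving out 1 pig gave 1.29 to 1.54, 0.82 to 0.95, 0.86 to 1.13 and 0.36 to 0.60 in group II and 1.20 to 1.65, 0.75 to 0.97, 0.89 to 1.41 and 0.84 to 0.98 in group IV. Requiring 10 counts in every pig removed CFAP53 and CEP128, which then had no value. With the share of reads outside genes as a covariate, TCHP between groups IV and I became 0.46, TCHP between groups IV and III became -0.040, and the second CEP128 identifier became 0.056 between groups III and II, -0.00095 between groups IV and II, -0.11 between groups IV and III and -0.0058 between females and males. The second identifier also turned to -0.00018 between groups IV and II with 10 counts in every pig and to -0.00043 between the sexes with limma-voom. CEP128 became -0.039 between groups IV and II on log2(CPM + 0.5), and its term for sex and cDDGS became 0.0047 with the identifiers summed. Leaving out 1 pig turned the sign of small differences that had passed no threshold. Those between groups IV and II ran from -0.21 to 0.24 for CFAP53, -0.15 to 0.056 for TCHP, -0.15 to 0.38 for CEP128 and -0.13 to 0.16 for its second identifier. Those between the sexes ran from -0.14 to 0.029 for TCHP, -0.18 to 0.054 for CEP128 and -0.074 to 0.11 for the second identifier. The second identifier ran from -0.034 to 0.29 between groups III and I. The terms for sex and cDDGS ran from -0.22 to 0.084 for CFAP53 and from -0.33 to 0.061 for TCHP. The cause was not tested in any of these cases.

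The number of list genes lower in group III at an unadjusted p under 0.05 was 3 with edgeR and 1 with DESeq2. Counts of called genes depended on the tool, with 3, 0, 0 and 0 by edgeR and 95, 135, 159 and 12 by DESeq2 for groups II, IV, the combined groups and group III against group I. Leaving out 1 pig moved the edgeR count between 0 and 17 in group II, 0 and 116 in group IV and 0 and 43 in the combined groups. Between the sexes, edgeR called 98 genes and DESeq2 247, and 33 to 187 without 1 pig. With 5 to 87 reads per pig, counting error limits the precision of the 4 genes. No paired analysis was possible because the groups share no pig numbers.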
